A study of Mus musculus with 16 samples.

Results

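RefSeq, the reference collection of transcripts, gives accessions that begin with NR_ to transcripts without an accepted protein-coding frame and accessions that begin with NM_ to mRNAs. The noncoding transcripts described here are the NR_ probes of a mouse expression array that were well above background on all 16 arrays of the study, leaving out 7 gene names (Gas5, Snhg1, Malat1, Neat1, Meg3, H19 and Rian). They were 391 probes for 343 gene names, out of 1426 NR_ probes and 39429 probes on the array. They are set beside the 14928 of 26639 NM_ probes that were detected in the same way. The members were chosen by the scanner software's detection flag, a measured value of each array, and by no ratio or difference between groups.

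AML12, a male mouse hepatocyte line, carried a doxycycline-inducible scramble shRNA (scramble+doxy+ins in the labels) or an shRNA that the labels give only as shrna and the methods name as directed against eIF6, a factor of 60S ribosomal subunit maturation and of translation initiation. Both cell populations received doxycycline for 48 h and insulin for 1 h, so no group lacks either agent; the sample descriptions give the insulin as 100 nM, whereas another label gives a different unit. The methods list a pair of eIF6 shRNA sequences and do not say which one these cells carried, and the cells were infected with a lentiviral vector and selected with puromycin. Cytoplasmic extracts were separated on sucrose gradients, fractions 1 to 6 were pooled as subpolysomal RNA and fractions 7 to 10 as polysomal RNA, and each of the 4 groups (scramble or eIF6 shRNA, subpolysomal or polysomal) was hybridized on 4 one-colour Agilent arrays described as biological replicates. The 4 slides each held 1 array of every group.

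Between 20179 and 24938 probes per array were well above background. Of the 3 probes of Eif6, the targeted mRNA, all were lower on polysomes of shRNA cells, with changes of −1.38, −1.26 and −0.52 on the log2 scale (limma, adjusted p = 2.11e-07, 6.84e-07 and 0.00401), and their subpolysomal differences were 0.02, 0.04 and −0.02 (adjusted p = 0.906, 0.84 and 0.939). The hepatocyte markers Ttr, Trf, Serpina1a, Hnf4a, Krt8 and Krt18 were detected on all 16 arrays, Alb on 7 and Apoa1 on 0. The fibroblast markers Col1a1, Col1a2, Col3a1 and Vim and the cholangiocyte markers Krt19 and Krt7 were detected on 16 arrays as well, as were Pecam1 (endothelial) and Cd68 (immune), whereas Ptprc was on 8 and Cdh5 on 0.

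A sucrose gradient sorts cytoplasmic RNA by the mass of the particles that hold it. Translated mRNAs sediment with polysomes, whereas small ribonucleoproteins, free transcripts and single ribosomes stay in the light fractions. Noncoding RNAs nevertheless include host transcripts of small nucleolar RNAs (snoRNAs) and of microRNAs, pseudogene copies of mRNAs, and transcripts that ribosomes engage without making a known protein, and many long noncoding RNAs stay in the nucleus and enter a cytoplasmic extract only in part.

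In what follows, the polysome ratio is the log2 intensity in polysomal RNA minus that in subpolysomal RNA, after quantile normalization over the arrays. The normalization gives every array the same distribution, so a ratio of 0 is not an equal amount of RNA in both fractions. It lies near the middle of all probes tested, whose median ratio was 0.067 in scramble and 0.073 in eIF6 shRNA cells. A probe is called when its adjusted p (limma, Benjamini-Hochberg over 25247 probes) is under 0.05. Differences between eIF6 shRNA and scramble cells are given as polysomal change, subpolysomal change, and change in translational efficiency, which is the polysomal minus the subpolysomal change.

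The noncoding probes lay toward the light end of the gradient. In scramble cells 219 of the 391 (56%) were called lower on polysomes and 67 (17.1%) higher, against 27.6% lower and 32.7% higher of all probes tested. Their median polysome ratio was −0.55 and that of the NM_ probes was 0.11. Of the NM_ probes, 27.6% were lower and 38% higher. In eIF6 shRNA cells 214 noncoding probes (54.7%) were lower and 71 (18.2%) higher, against 27.3% lower and 33.6% higher of all probes, with medians of −0.52 for the noncoding and 0.14 for the NM_ probes (25.4% lower and 38.8% higher).

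The distance between both medians was −0.66 in scramble cells and −0.65 in eIF6 shRNA cells. Over the 4 replicate numbers it ran from −0.83 to −0.57 in scramble and from −0.86 to −0.50 in shRNA cells, and within the 4 slides from −0.79 to −0.58 and from −0.90 to −0.54. It was below 0 in each of these 16 values, which combine the same 16 arrays by replicate number and again by slide. The zero point itself depends on the scaling. Scaling to 7 spike-in probes moved the median of all probes by 1.49 in scramble and 1.30 in shRNA cells, and scaling to the 75th percentile by −0.31 in both. The split of the noncoding probes in scramble cells was then 158 higher and 33 lower with spike-ins, and 41 and 285 with the 75th percentile, and in shRNA cells 127 and 37, and 42 and 275. Under both scalings the median of the noncoding probes stayed below that of the NM_ probes, by −0.95 in scramble and −0.89 in shRNA cells, whereas normexp background correction brought this distance to −0.38 and −0.37. The sentences below on lower and higher probes therefore refer to the zero of the quantile normalization, which lies near the middle of all probes.

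The tail was longer than the shift of the median. Among the noncoding probes 134 (34.3%) were called at least 2-fold lower on polysomes in scramble cells and 50 (12.8%) at least 4-fold lower, against 8.29% and 1.34% of the NM_ probes. In shRNA cells these shares were 31.5% and 12.3% of the noncoding and 7.84% and 1.29% of the NM_ probes. The 5th to 95th percentile of NM_ probes spanned polysome ratios from −1.29 to 1.30 in scramble cells, and 99 noncoding probes (25.3%) fell below that span and 9 (2.3%) above it. Lighter than every one of the NM_ probes, whose lowest ratio was −4.30, were 8 noncoding probes in scramble cells, those of Rmrp, Rnu3b1, Rnu2-10, Snora74a, Rnu1b6, Gm4532, Dancr and the transcribed pseudogene 1700022A21Rik. In shRNA cells, where the lowest NM_ ratio was −4.26, there were 6, without the last 2. Both cell populations called 199 probes lower and 60 higher, and 0 were called in opposite directions, against 3395, 5043 and 30 NM_ probes.

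Detection on all arrays is a condition that an RNA missing from one fraction cannot meet. Of 1415 NR_ probes with the 7 names left out, 27.6% met it, against 56% of NM_ probes. There were 2 NR_ probes detected on every subpolysomal and no polysomal array (4833427F10Rik and Zfp207) and 2 with the reverse pattern (AW011738 and 6030443J06Rik). On all 8 polysomal but fewer subpolysomal arrays there were 54 NR_ probes, and 14 the other way round, against 1544 and 125 NM_ probes. The 5 dimmest members had mean log2 intensities of 4.10 to 4.47, and the 22 NR_ probes detected on 15 arrays, just outside the rule, had 4.07 to 6.51 with a median of 4.62. With the members split into 3 sets of equal size by their mean intensity, the distance to the NM_ median in scramble cells was −0.54 in the dimmest, −0.80 in the middle and −0.63 in the brightest set.

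Many NR_ accessions on the array are old, and the present RefSeq table gave 362 probes a type through their accession and 26 more through their symbol. They were 242 long noncoding RNAs (lncRNAs), 100 transcripts of pseudogenes, 36 transcripts of genes now listed as protein-coding and 10 of small RNA types, with 3 unmatched. These types occupied different places on the gradient. The median polysome ratio in scramble cells was −3.96 for small RNA types, −0.62 for lncRNAs, −0.33 for protein-coding genes and −0.09 for pseudogenes. Of the small RNA types 9 probes were called lower and 1 higher, of the lncRNAs 147 and 29, of the protein-coding genes 16 and 9, and of the pseudogenes 45 and 28. Of all probes tested, 27.6% were lower and 32.7% higher. With spike-in scaling the medians of lncRNAs, protein-coding genes and pseudogenes turned positive (0.70, 0.97 and 1.10) and that of small RNA types was −2.49, with the order of the 4 types kept in scramble cells. The medians in shRNA cells were −3.64, −0.59, −0.32 and −0.17.

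The lightest members were small RNAs that work in ribonucleoprotein particles and not as messages. A list of small RNAs of known function held 9 detected probes. In scramble cells 8 were called lower and 0 higher, with a median of −4.95, and in shRNA cells 7 were lower, with a median of −4.65. Of all probes tested, 27.6% were lower and 32.7% higher in scramble cells, and 27.3% were lower in shRNA cells. With spike-in scaling 6 of the 9 stayed below 0 in scramble cells (not Rnu12, Terc and Rn18s) and all 9 stayed below the NM_ median. The probe sequences of Rmrp, Rnu3b1, Rnu2-10 and Rnu1b6, the lightest 4 in shRNA cells, are given 5′ to 3′ as the array carries them (coordinates in mm9), to show which part of each RNA was read.

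Rmrp, chr4:43505847-43505906, minus strand: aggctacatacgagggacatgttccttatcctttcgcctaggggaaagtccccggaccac
Rnu3b1, chr11:87285025-87285084, plus strand: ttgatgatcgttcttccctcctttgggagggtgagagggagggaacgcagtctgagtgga
Rnu2-10, chr11:101488770-101488829, plus strand: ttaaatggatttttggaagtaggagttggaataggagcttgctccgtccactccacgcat
Rnu1b6, chr3:96177965-96178024, plus strand: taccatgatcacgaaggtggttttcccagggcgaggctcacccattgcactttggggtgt

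Rmrp is the RNA subunit of RNase MRP, an enzyme of ribosomal RNA processing. Its log2 intensity was 13.79, 13.04, 13.57 and 13.28 on the subpolysomal and 5.48, 5.86, 6.49 and 5.29 on the polysomal arrays of scramble cells. In shRNA cells it was 13.01, 13, 12.61 and 13.72 against 5.99, 5.63, 6.46 and 5.41. The fractions were far apart on every array, and the ratio of −7.64 ± 0.30 (SE) in scramble cells is a 199-fold difference (adjusted p = 5.13e-11). No NM_ or NR_ member had a lower ratio.

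Rnu3b1 encodes the U3 RNA, which guides early cleavages of pre-ribosomal RNA. It had 13.44, 12.81, 13.17 and 13.26 in the subpolysomal and 6.59, 6.91, 7.35 and 6.23 in the polysomal fraction of scramble cells, a ratio of −6.40 (84.5-fold, adjusted p = 1.64e-11), and −6.14 in shRNA cells. The spliceosomal RNAs U2 (Rnu2-10) and U1 (Rnu1b6) had ratios of −5.66 and −4.95 in scramble and −5.47 and −5.03 in shRNA cells. Rnu12, of the minor spliceosome, was less extreme, with −1.82 and −2.10. With spike-in scaling the ratio of Rnu12 in scramble cells was 0.05.

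A pair of snoRNAs of the class that guides pseudouridylation, Snora74a and Snora47, were also light. Snora74a had 10.99, 11, 11 and 11.17 against 5.57, 5.79, 5.95 and 5.57 in scramble cells, a ratio of −5.32 (40-fold). Snora47 had 7.5, 7.55, 7.66 and 7.26 against 4.57, 4.06, 4.66 and 4.75, a ratio of −2.98 (7.9-fold). Neither overlapped between fractions. Terc, the RNA template of telomerase, had −1.02 ± 0.37 (SE) in scramble cells (adjusted p = 0.0267) and −0.80 in shRNA cells (adjusted p = 0.0739), where a single polysomal array read 6.65 and the others 4.48 to 4.63. Rn18s, the RNA of the small ribosomal subunit, which both monosomes and polysomes contain, had −0.21 (adjusted p = 0.205) in scramble and 0.04 in shRNA cells, neither of them called. Its 16 intensities ran from 17.57 to 18.39, with overlap between all groups.

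Most of these small RNAs lack a poly(A) tail in their mature form, and the one-colour labelling protocol named in the labels primes cDNA from such a tail. Which form of each RNA the probes read was not tested. The letters AATAAA, the usual signal for tail addition, occurred on the printed strand of 65 member probes (16.6%) and in 14.9% of the NM_ probes, and in none of the 4 sequences above.

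The second light group were snoRNA host genes, whose introns hold snoRNAs while the spliced exons are exported without a conserved reading frame. The list held 12 probes for 11 genes. All 12 were called lower in scramble and in shRNA cells, beside 27.6% and 27.3% of all probes tested. They ran from −4.30 to −1.39 (median −3.04) in scramble and from −4.23 to −0.98 (median −2.56) in shRNA cells. With spike-in scaling Snhg17 (0.39 and 0.36) and Snhg5 (0.30 and 0.48) turned positive, and all 12 remained below the NM_ median.

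Dancr, the lightest host, had 12.58, 12.43, 12.59 and 12.65 on subpolysomal and 8.14, 8.20, 8.58 and 8.13 on polysomal arrays of scramble cells. That is a ratio of −4.30 (19.7-fold, adjusted p = 1.5e-12) with no overlap, and −4.23 in shRNA cells. Snhg7 had 11.97, 11.83, 11.94 and 11.99 against 7.76, 7.79, 8.06 and 7.92, a ratio of −4.05 (16.6-fold), and −3.91 in shRNA cells. Snhg16 had −3.97 and −2.71 with its 2 probes, so probes of 1 host can differ by more than 1 on the log2 scale. Snhg6 (−3.74), Snhg12 (−3.43), Snhg3 (−3.13), Snhg15 (−2.96), Snhg10 (−2.25) and Snhg18 (−2.22) followed, and Snhg17 (−1.48) and Snhg5 (−1.39) were the heaviest.

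Snhg5 had 10.45, 10.35, 10.12 and 10.09 against 9.14, 8.96, 9.06 and 8.28 in scramble cells, and 9.88, 9.68, 9.62 and 9.78 against 9.06, 8.62, 8.78 and 8.57 in shRNA cells. The fractions did not overlap in either population, and the difference between the ratios of both populations, 0.41, was not called (adjusted p = 0.554). A further set was drawn by the place of an annotated snoRNA inside the gene, on either strand, and it largely repeats the hosts named above. Among all lncRNA members, 15 probes for 14 genes lay in genes whose span holds an annotated snoRNA, and these 15 were all lower, with a median of −2.76 (−1.10 with spike-in scaling, where 12 of 15 were below 0). They add 1110038B12Rik (−2.11), 2410006H16Rik (−2.76) and 9330159M07Rik (−1.43) to the hosts named above. Of the 221 lncRNA probes with neither a snoRNA nor a microRNA in the span, 126 were lower and 29 higher, with a median of −0.53. The shares of all probes tested were 27.6% lower and 32.7% higher.

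Several host genes of snoRNAs are known to begin with a pyrimidine tract like that of ribosomal protein mRNAs, which makes translation sensitive to growth signals. The starts of 10 of the 11 hosts were read in RefSeq (GRCm38.p6), 20 bases before and 30 from the annotated start. A C followed by at least 4 C or T, beginning within 5 bases of the start on the transcript strand, was found in 5 of the 10, in 45 of 209 other member genes (21.5%) and in 6027 of 32851 windows of all genes (18.3%). The other strand was not searched. The 5 windows with a match are given with the letters from the matched C to the end of its run in capitals. In Snhg10 and Snhg12 the run also holds C or T before that C. A match is a description of letters, not of a functional tract.

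Snhg18, chr15:32244633-32244682, minus strand: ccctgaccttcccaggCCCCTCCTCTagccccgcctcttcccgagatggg
Snhg10, chr12:105032250-105032299, minus strand: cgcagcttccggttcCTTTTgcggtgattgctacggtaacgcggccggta
Snhg12, chr4:132308658-132308707, plus strand: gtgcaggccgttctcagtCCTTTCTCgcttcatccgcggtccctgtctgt
Snhg3, chr4:132353657-132353706, minus strand: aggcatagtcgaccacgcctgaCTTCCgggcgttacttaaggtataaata
Snhg7, chr2:26640215-26640264, minus strand: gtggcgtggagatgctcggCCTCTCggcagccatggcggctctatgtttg

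The hosts with these letters ranged from −4.05 (Snhg7) to −2.22 (Snhg18) in polysome ratio, and those without from −4.30 (Dancr) to −1.39 (Snhg5), and the ranges of both sets overlapped.

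Long noncoding RNAs with a known role formed another list, of 20 probes for 12 genes. In scramble cells 15 were lower and 2 higher, with a median of −2.07, and in shRNA cells 15 and 4, with a median of −1.96. The shares of all probes tested were 27.6% lower and 32.7% higher in scramble, and 27.3% and 33.6% in shRNA cells. With spike-in scaling 12 of the 20 were below 0 in scramble cells and the median was −0.59. Norad, a cytoplasmic RNA that binds Pumilio proteins, was read by 4 probes, which gave −3.74, −3.73, −3.50 and −3.33 in scramble cells. The brightest of them had 14.79, 14.42, 14.63 and 15 in the subpolysomal and 11.29, 11.38, 11.56 and 11.29 in the polysomal fraction. All 4 probes of this RNA therefore placed it in the light fractions, within a range of 0.41.

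Firre (−2.99 and −2.23), a nuclear organizer, and Pvt1 (−2.42 and −2.17), a neighbour of Myc, were light with both probes. Kcnq1ot1, which silences imprinted genes in cis, had −1.98, and Airn, another such transcript, had 0.01 and −0.63 with its 2 probes. Tug1, found in both nucleus and cytoplasm, was placed on the heavy side. Its 3 probes had ratios of 0.28 (adjusted p = 0.274), 0.69 (0.00213) and 0.75 (6.02e-06; limma for each) in scramble cells and 0.83, 0.76 and 0.75 in shRNA cells. The last of these probes read 9.19, 9.21, 9.30 and 8.90 against 9.92, 9.99, 9.89 and 9.80, with no overlap between fractions. Peg13, an imprinted transcript, had 0.23 (adjusted p = 0.084).

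MicroRNA host transcripts, which are cut in the nucleus to release hairpins, were light as well. All 7 lncRNA probes whose gene span holds an annotated microRNA were called lower in scramble cells, with a median of −1.65. Of all probes tested, 27.6% were called lower there. With spike-in scaling 4 of the 7 were below 0. The 7 are not a separate set: Snhg10 is also a snoRNA host above, and the others except D7Ertd143e were on the list of known lncRNAs. Mir17hg, the host of a microRNA cluster that ends with miR-92a, had a mean log2 intensity of 10.55 ± 0.18 (SD, n = 4) in the subpolysomal and 6.58 ± 0.17 in the polysomal fraction of scramble cells, a ratio of −3.97 (15.7-fold), and −3.88 in shRNA cells. Mir22hg had −2.82 and −2.60, Mirg −1.65 and −2.39, Dleu2 −0.96 and −1.14, Ftx −0.71 and −0.54, and D7Ertd143e −0.79 and −0.15. The arrays read these long precursors and not the mature microRNAs. The products of the hosts whose values are described here carry the following seeds (bases 2 to 8 in capitals; RefSeq, GRCm38.p6).

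miR-92a-3p of Mir17hg: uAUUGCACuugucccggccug
miR-22-3p of Mir22hg: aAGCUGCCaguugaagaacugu
miR-16-5p of Dleu2: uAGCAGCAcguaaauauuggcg
miR-15a-5p of Dleu2: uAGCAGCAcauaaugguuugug
miR-291a-3p of D7Ertd143e: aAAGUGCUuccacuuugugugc
miR-294-3p of D7Ertd143e: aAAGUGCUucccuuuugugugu
miR-295-3p of D7Ertd143e: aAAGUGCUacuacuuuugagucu
miR-410-3p of Mirg: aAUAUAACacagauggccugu
miR-453 of Mirg: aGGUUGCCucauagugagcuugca
miR-496a-5p of Mirg: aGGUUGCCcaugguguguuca

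D7Ertd143e, the host of the embryonic stem cell microRNAs, held 11 mature sequences with 7 seeds, and 3 of the sequences share AAGUGCU. Mirg, the distal transcript of the imprinted Dlk1-Dio3 region, held 19 with 18 seeds.

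Transcripts named after an opposite-strand gene (11 probes) had 8 lower and 0 higher in scramble cells, with a median of −0.80, or 0.60 with spike-in scaling. The largest lists were clone symbols ending in Rik (168 probes, 93 lower and 28 higher, median −0.50, or 0.81 with spike-in scaling) and predicted Gm or LOC symbols (105 probes, 43 and 22, median −0.31, or 1.03). Beside these lists, 27.6% of all probes tested were lower and 32.7% higher in scramble cells. Gm4532, a predicted lncRNA, lay among the small RNAs. It had 9.27, 9.15, 9.29 and 9.12 against 4.63, 4.72, 4.97 and 4.67 in scramble cells, a ratio of −4.46 (22-fold), and −4.91 in shRNA cells, with no overlap. Gt(ROSA)26Sor (−3.02) was light as well. Gm11213, which the RefSeq table now lists as protein-coding, had −4.48, −3.89, −1.53 and −4.56 in the 4 scramble replicates (−3.62 from the means).

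At the heavy end stood transcripts that copy or overlap coding genes, and several uncharacterized lncRNAs. Gm5176, a transcribed pseudogene, had the highest ratio in scramble cells. It had 10.18, 10.66, 10.05 and 9.17 in the subpolysomal and 12.14, 12.28, 11.92 and 11.70 in the polysomal fraction, a ratio of 1.99 ± 0.30 (SE, adjusted p = 4.64e-05), and 1.5 in shRNA cells. The NR_ probe of Etfb, a gene for an electron transfer flavoprotein subunit that also makes mRNA, had 11.80, 12.06, 12.08 and 11.85 against 13.61, 13.75, 13.62 and 13.61, a ratio of 1.70. No fraction overlapped for either.

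The lncRNA 9330102E08Rik read 4.77, 5.35, 5.11 and 4.91 against 6.62, 6.66, 6.62 and 6.56 in scramble cells, a ratio of 1.58 (adjusted p = 4.42e-07), and 1.84 in shRNA cells. The lncRNA 1700028J19Rik had 1.67 and 1.64. H2-Q5, listed as a transcribed pseudogene of the major histocompatibility complex, had 1.53 and 0.64. Whether any of these transcripts is translated was not measured.

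A probe can also bind a coding relative. A run of at least 25 bases was shared with an NM_ probe by 12 members, of which 11 matched 1 gene and 1700110I01Rik matched 27. For these 11, the polysome ratios in scramble cells are given beside those of their partners. The pseudogenes Gm12070, Gm5523 and Gm6981 had 0.61, 0.53 and 0.12 and the matching Gapdh probes 0.64, 0.64 and 0.23. Hmgb1-rs17 had 1.34 and Hmgb1 1.32, Gm8580 had 0.42 and Rpl29 0.43, and Gm6548 had −1.53 and Eef1a1 −1.19. The ratio of 2700099C18Rik was −1.37 and that of Ndc80 −0.15. For 1600029O15Rik it was −0.59 (Rpl17 −0.45), and for Gm15421 −0.86 (Rpl22l1 −0.5). For Gm5801 it was 0.83 (Ube2j2 0.54), and for H2-K2 0.97 (H2-Q7 0.66). The part of the Gm6981 probe that is identical to a Gapdh probe, 28 bases, is in capitals.

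Gm6981: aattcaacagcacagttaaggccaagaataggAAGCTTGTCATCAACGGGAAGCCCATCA

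How far such a probe reads the mRNA was not tested. Probes of 1 pseudogene could also disagree, as the 5 probes of Gm6981 ran from −0.73 to 0.82 and those of Gm8709 from 0.02 to 1.08. A gene name shared with an NM_ probe was carried by 11 members, of which 5 were lower and 4 higher in scramble cells, with a median of −0.25, or 1.27 with spike-in scaling. Of all probes tested, 27.6% were lower and 32.7% higher there. Members whose name has no NM_ probe had a distance to the NM_ median of −0.69 in scramble and −0.68 in shRNA cells.

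Some of these transcripts differed between eIF6 shRNA and scramble cells in both fractions, and few were called for the change in translational efficiency. That change contrasts all 4 groups and is less precise, so fewer calls there do not show that transcripts kept their place. On polysomes 65 noncoding probes (16.6%) rose and 23 (5.88%) fell, against 10.8% higher and 10.2% lower of all probes tested. In subpolysomal RNA 64 (16.4%) rose and 40 (10.2%) fell, against 11.4% and 11.9%. The medians were 0.08 and 0.07 for the noncoding and 0.02 and 0 for the NM_ probes. Scaling to spike-ins moved the median of all probes by −0.48 on polysomes and −0.26 in subpolysomal RNA and left 1 rise and 9 falls, and 1 and 5. Leaving out replicate 4 raised the called probes on polysomes from 88 to 120 and leaving out replicate 1 or 2 lowered them to 53 or 58; in subpolysomal RNA leaving out replicate 4, 1, 2 or 3 gave 140, 49, 52 or 59 in place of 104. The distance to the NM_ median within slides ran from −0.05 to 0.25 on polysomes, around a value of 0.06 over all arrays. In these bulk extracts fewer cells that make an RNA and less RNA per cell cannot be told apart.

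Of the noncoding probes 43 were higher and 18 lower in both fractions and 0 were called in opposite directions, as were 1657, 1829 and 15 of all probes tested. Of the 391 noncoding probes, 27 were called on polysomes alone, 43 in subpolysomal RNA alone, and 260 in neither. Of all 25247 probes tested, these counts were 1808, 2396 and 17542.

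The transcripts with the largest falls and rises are described with their probes (mm9), since their names alone tell little.

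Snhg18, chr15:32170363-32170422, minus strand: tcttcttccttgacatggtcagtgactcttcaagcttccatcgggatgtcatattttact
3300005D01Rik, chr17:5803166-5803225, plus strand: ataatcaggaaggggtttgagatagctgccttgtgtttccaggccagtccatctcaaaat
AW112010, chr19:11122349-11122408, minus strand: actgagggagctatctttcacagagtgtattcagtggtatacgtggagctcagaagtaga
Mirg, chr12:110987569-110987628, plus strand: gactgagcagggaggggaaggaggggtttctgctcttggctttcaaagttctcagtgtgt

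Snhg18, a snoRNA host named 0610007N19Rik on the array, fell most. In subpolysomal RNA it went from 12.05, 11.90, 12.08 and 12.18 in scramble cells to 8.93, 9.03, 8.99 and 9.06 in shRNA cells, and on polysomes from 9.82, 9.97, 10.15 and 9.41 to 7.09, 6.83, 7.17 and 6.37. The cell populations did not overlap in either fraction. The changes of −3.05 and −2.97 are 8.26-fold and 7.84-fold (adjusted p = 1.62e-08 and 1e-08), and its polysome ratio hardly differed (−2.22 and −2.14).

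3300005D01Rik, an uncharacterized lncRNA, went from 11.07, 11.13, 11.15 and 10.69 to 8.96, 8.83, 8.79 and 8.41 on polysomes and from 11.44, 11.32, 11.27 and 11.38 to 9.34, 9.31, 9.36 and 9.36 in subpolysomal RNA. Again there was no overlap, with changes of −2.26 and −2.01 (adjusted p = 5.27e-09 and 3.12e-08). Other falls on polysomes were those of 1810020O05Rik (−1.76), Gm2115 (−1.73), Has2os (−1.67), which lies antisense to a hyaluronan synthase gene, and Peg13 (−1.22). Their subpolysomal changes, in the same order, were −1.75, −1.65, −1.46 and −1.21. D930028M14Rik fell by 1.38 on polysomes and by 1.85 in subpolysomal RNA.

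AW112010, an interferon-inducible transcript, rose most. It went from 9.77, 9.81, 9.96 and 9.47 to 12.29, 12.23, 12.46 and 11.81 on polysomes and from 9.22, 9.50, 9.59 and 9.43 to 11.50, 11.80, 11.61 and 11.94 in subpolysomal RNA. The populations did not overlap, and the changes were 5.45-fold and 4.86-fold (2.45 and 2.28, adjusted p = 1.7e-08 and 6.63e-08). Gm9926 (1.72 on polysomes and 1.53 in subpolysomal RNA) also rose in both fractions without overlap, as did 3110009F21Rik (1.62 and 1.83), 1810064F22Rik (1.30 and 1.12), 2700046G09Rik (1.2 and 1.17 with 1 of its 2 probes, 1.17 and 0.75 with the other) and 4931408D14Rik (1.01 and 1.14).

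Mirg rose in both fractions, from 5.48, 5.26, 5.69 and 5.53 to 7.51, 7.73, 7.29 and 7.66 in subpolysomal RNA and from 3.90, 3.64, 4.41 and 3.4 to 5.23, 5.15, 5.4 and 4.86 on polysomes. The changes of 2.06 and 1.32 (adjusted p = 1.69e-06 and 9.8e-05) had no overlap, and their difference, −0.74, was not called (adjusted p = 0.253). The polysomal values of Mirg in scramble cells lay within or below the mean intensities of the 5 dimmest members (4.10 to 4.47). This limits its polysome ratio, its polysomal change and that difference. The changes of Mir17hg were −0.45 on polysomes and −0.54 in subpolysomal RNA, both called. Of the 2 probes of Firre (6720401G13Rik), 1 rose by 0.59 on polysomes and 0.66 in subpolysomal RNA.

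Of the 9 small RNAs, 2 fell in subpolysomal RNA and 0 on polysomes, where 11.9% and 10.2% of all probes tested were called lower. They were Snora47, which went from 7.26–7.66 to 6.32–6.58 (−1.05, adjusted p = 1.07e-04), and Snora74a, from 10.99–11.17 to 9.95–10.45 (−0.91, adjusted p = 7.4e-05). For both, the 4 shRNA arrays lay below the 4 scramble arrays, and on polysomes the changes were −0.26 and −0.24 (adjusted p = 0.253 and 0.207). The polysomal signal of Snora47 in scramble cells, given above, lay close to the mean intensities of the 5 dimmest members (4.10 to 4.47). Whether a polysomal fall was hidden there was not tested. Of the 12 host probes 4 fell in subpolysomal RNA, those of Snhg18, Snhg5 (−0.52), Snhg7 (−0.35) and 1 of Snhg16 (−0.81), and 1 fell on polysomes, that of Snhg18. Kcnq1ot1 fell in subpolysomal RNA by 0.79 (adjusted p = 2.89e-04), and Gm4532 rose there by 0.74 (adjusted p = 2.01e-05).

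The change in translational efficiency asks whether the polysome ratio itself differed between the cell populations. It was called for 2 noncoding probes higher and 1 lower, against 0.325% higher and 0.931% lower of all probes tested; at an unadjusted p under 0.05 there were 17 and 20 of 391, and 1277 and 1737 of all 25247 probes tested. With the 75th percentile 1 was higher and 7 lower, with normexp background correction 6 and 3, and with spike-in scaling 0 were called. Leaving out replicate 1, 2 or 3 left 0 calls. The 12 host probes had changes of 0.07 to 0.51 (median 0.33) and none was called; all 12 were above 0, whereas 11 were with 75th percentile and 6 with spike-in scaling. Snora47 (0.79, adjusted p = 0.0919), which was dim on polysomes, and Snora74a (0.67, adjusted p = 0.0827) were not called. Among the markers of other cell types, the collagens Col1a1, Col1a2 and Col3a1 had changes in efficiency of −1.25, −2.31 and −1.39 and Vim −0.35. Krt19, Krt7, Cd68, Pecam1 and Ptprc had 0.15, 0.02, 0.30, −0.18 and −0.78. Of the hepatocyte markers, Alb, detected on 7 arrays, had −2.19, and those detected on all arrays ran from −0.18 (Ttr) to 0.38 (Krt8). The part of these markers in the results was not tested.

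The probes of the 3 called lncRNAs (mm9) all hold AATAAA, in capitals.

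1700097N02Rik, chr17:30759394-30759453, minus strand: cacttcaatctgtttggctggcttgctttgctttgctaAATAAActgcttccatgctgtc
D7Ertd143e, chr7:3220957-3221016, plus strand: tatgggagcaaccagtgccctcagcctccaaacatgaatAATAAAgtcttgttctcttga
1600025M17Rik, chrX:53573769-53573828, plus strand: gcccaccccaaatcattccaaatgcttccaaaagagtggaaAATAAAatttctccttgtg

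1700097N02Rik moved toward polysomes. In scramble cells it had 5.89, 6.13, 5.76 and 5.96 in the subpolysomal and 5.16, 5.09, 5.21 and 4.83 in the polysomal fraction, and in shRNA cells 6.22, 6.32, 6.10 and 6.38 against 6.25, 6.16, 6.27 and 6.22. The fractions were apart in scramble cells and overlapped in shRNA cells, and the change was 0.83 ± 0.14 (SE, adjusted p = 0.00887). With spike-in scaling it was 0.72 and not called, and the call was also lost without replicate 1, 2 or 3.

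D7Ertd143e had 6.10, 5.87, 5.90 and 6.06 against 5.18, 5.03, 5.39 and 5.16 in scramble cells, and 5.16, 5.37, 5.33 and 5.47 against 5.29, 5.25, 5.17 and 5.03 in shRNA cells. Its subpolysomal signal fell by 0.65 (adjusted p = 2.43e-04), while its polysomal change was −0.002 (adjusted p = 0.993). The change in efficiency was 0.65 ± 0.14 (SE, adjusted p = 0.0365). It was 0.48 with the 75th percentile and 0.30 with spike-in scaling, neither called, and the call was also lost with normexp, with the replicate number as a block, without the filter on dim probes and without any 1 of the replicates.

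1600025M17Rik moved the other way. It had 5.39, 5.55, 5.46 and 5.59 against 6.16, 6.03, 6.40 and 5.98 in scramble cells, where polysomal values were all the higher ones, and 5.05, 5.03, 4.58 and 4.60 against 4.64, 4.64, 4.21 and 4.63 in shRNA cells, where the fractions overlapped. Its polysomal signal fell by 1.61 and its subpolysomal signal by 0.68, and the change in efficiency was −0.93 ± 0.20 (SE, adjusted p = 0.0322). It was −1.40 and not called with spike-in scaling, and the call was also lost with the replicate number as a block, without the filter on dim probes, with probes detected on all 16 arrays only, and without any 1 of the replicates. H2-Q5 had a change of similar size, −0.89, that was not called (adjusted p = 0.09). The 3 called probes were dim, with intensities of 4.21 to 6.40 on all 16 arrays.

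The mRNAs of 3 machineries that handle noncoding RNA were looked up in the same fit. Of 22 probes for nonsense-mediated decay factors, which degrade transcripts with early stop codons, 0 rose and 2 fell in each fraction, beside 10.8% higher and 10.2% lower on polysomes and 11.4% and 11.9% in subpolysomal RNA of all probes tested (Magohb, −0.49 on polysomes and −0.44 in subpolysomal RNA, and Smg5, −0.49 in both). The medians were −0.09 and −0.15, beside 0.02 and 0 for NM_ probes. Of 10 probes for the core proteins of snoRNPs, 1 fell on polysomes (Nhp2l1, −0.32) and 3 in subpolysomal RNA (2 of Nop56, −0.43 and −0.58, and Nop10, −0.30), with medians of −0.29 and −0.28. Of 16 probes for the RNA exosome, the 3′ to 5′ degradation complex, Exosc9 rose in both fractions (0.69 and 0.70), Exosc8 fell in both (−0.49 and −0.24), and Exosc6 (−0.32), Dis3 (−0.40) and Zcchc7 (−0.31) fell on polysomes. None of these probes was called for translational efficiency.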

How the data were processed

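Polysomal and subpolysomal RNA was measured on 16 one-colour arrays. The authors deposited one file per array with the intensity of each spot, which the Feature Extraction software had corrected for background (version 10.7.7.1 per the labels and 10.7.3.1 per the file headers) and which was not normalized between arrays. Their own log2 values, deposited as 1 table for all arrays and normalized by the quantile method, served as an alternative. Each array held 44397 spots.

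Outlier spots were dropped (2 members then lacked the value of 1 array, 4831440E17Rik and Gm10509, and were fitted on the rest), log2 intensities were averaged per probe, and a probe was kept if 1 group or more had 2 arrays on which it was well above background. The 25247 kept probes were quantile normalized and fitted with limma 3.58.1 (R 4.3.3, data.table package version 1.17.8), with 1 mean per group and Benjamini-Hochberg adjustment over all kept probes at 0.05. Medians of the NR_ and NM_ probes are descriptions without a test. The script was tested on simulated data. The members and lists were chosen with earlier results of these data known. Named are the 6 called probes with the largest value per direction and comparison whose groups did not overlap, all small RNAs, snoRNA hosts and known lncRNAs of fixed lists, and genes with 3 or more probes; others were chosen after their values were seen. Not every probe so named is given.

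Names came from the RefSeq table (GRCm38.p6), which matched 362 probes by accession, 15 by symbol and 11 by an older symbol. Probe coordinates are those of the deposited files (mm9). Replicate numbers were not used to pair arrays. Deviations from the group means of same-numbered arrays of 1 shRNA correlated between −0.15 and 0.03 (8 pairs). Those of different shRNAs and slides correlated between −0.25 and 0.43 (14 pairs, median −0.01). The value of 0.43 was that of the polysomal arrays of replicate 4. On these the NR_ median lay −2.55 (scramble) and −2.51 (shRNA) from the NM_ median, and −2.37 to −2.15 on the other polysomal arrays. Whether replicate 4 shares a batch across cell populations was not tested. Arrays on 1 slide had median correlations of 0.11 to 0.15. The number of arrays limits the precision. Alternatives were the scaling (75th percentile, 7 of 10 spike-in probes), normexp background correction (offset 50), the filter, the authors' log2 values, a mean per gene name, quantile normalization within fractions, slide and replicate number as blocks, and leaving out each replicate. Sequences were read with pandas 2.3.3 (Python 3.11.15).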

Additional observations from a re-analysis of the deposited data

Results flagged for a closer look

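The values of the probes named by the rule on size and of the listed probes were searched for single arrays that stood far from the other 3 arrays of their group (the gap to the nearest array, as a share of the group's range, above the critical value of Dixon's test). This occurred in 18 of 336 groups over 84 probes, and chance alone gives about 1 in 20 groups. Replicate 4 held most of them, with 5 in subpolysomal RNA of scramble cells, 5 in subpolysomal RNA of eIF6 shRNA cells and 2 in polysomal RNA of scramble cells.

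In subpolysomal RNA of scramble cells, replicate 4 read 12.03 for a probe of Gm6981 (others 10.92 to 11.10), 13.75 for a probe of Gm8709 (13.11 to 13.19), 14.54 for a probe of Gm5069 (14.09 to 14.16), 11.17 for Snora74a (10.99 to 11) and 8.67 for a probe of Tug1 (9.28 to 9.35), and replicate 3 read 7.65 for another probe of Gm8709 (8.14 to 8.22). In subpolysomal RNA of shRNA cells, replicate 4 read 14.15 for a probe of Norad (14.57 to 14.61), 16.87 and 17.67 for probes of Gm10653 (17.12 to 17.15 and 17.78), 15.54 for a probe of Gm5069 (15.63 to 15.64) and 7.80 for a probe of Gm8709 (8.44 to 8.52), and replicate 1 read 7 for 1810064F22Rik (5.89 to 6.04).

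On polysomes of scramble cells, replicate 4 read 10.69 for 3300005D01Rik (11.07 to 11.15) and 13.64 for a probe of Gm8709 (13.18 to 13.24), replicate 3 read 8.58 for Dancr (8.13 to 8.20), and replicate 2 read 13.75 for Etfb (13.61 to 13.62). On polysomes of shRNA cells, replicate 3 read 4.21 for 1600025M17Rik (4.63 to 4.64) and 6.65 for Terc (4.48 to 4.63).

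The polysome ratio differed between cell populations, by the interaction in the limma fit, for 1600025M17Rik (−0.93), 1700097N02Rik (0.83) and D7Ertd143e (0.65), with the adjusted p-values given above.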

How the results depend on the processing

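Of 5712 values of named probes under the alternatives, 5383 were called in both fits with the same direction, or in neither fit whatever their direction. Another 181 kept their direction and lost a call, and 106 gained a call in either direction. The remaining 42 were called in the main fit and had the opposite direction under the alternative. The distance of the NR_ median from the NM_ median (main −0.66 in scramble and −0.65 in shRNA cells) was −0.95 and −0.89 with the 75th percentile, −0.95 and −0.89 with spike-ins and −0.38 and −0.37 with normexp, −0.54 and −0.80 for the dimmest and the middle of 3 equal sets of members in scramble cells, and −0.70 to −0.62 and −0.69 to −0.54 with a replicate left out. For the subpolysomal change it was 0.07, and −0.02 in the brightest set.

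Called noncoding probes with spike-in scaling were 191 and 164 for the polysome ratio in scramble and shRNA cells, 10 for the polysomal change, 6 for the subpolysomal change and 0 for translational efficiency. Translational efficiency had 8 calls (1 higher and 7 lower) with the 75th percentile, 9 (6 and 3) with normexp and 1 without a filter. With a replicate left out, the counts ran from 259 to 294 and from 252 to 296 for the polysome ratio, 53 to 120 on polysomes, 49 to 140 in subpolysomal RNA and 0 to 3 for translational efficiency (0 without replicate 1, 2 or 3). With the replicate number as a block, which the main fit did not use, the counts were 285, 287, 85, 94 and 1. The slide as a block gave 290, 292, 98, 119 and 3.

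With spike-ins, polysome ratios that turned positive in scramble cells were 0.34 for 1700097N02Rik, 0.70 for 1810020O05Rik, 1.48 for 3300005D01Rik, 0.39 for Snhg17, 0.91 for Airn, 0.42 for D7Ertd143e, 0.18 for D930028M14Rik, 0.20 for Dleu2, 0.35 for Ftx, 0.94 for Gm10845, 0.74 for Gm6981, 0.98 for Has2os, 0.05 for Rnu12, 0.30 for Snhg5 and 0.16 for Terc. In shRNA cells they were 0.10 for 1810020O05Rik, 0.86 for 3300005D01Rik, 0.36 for Snhg17 (9430008C03Rik), 0.80 for Airn, 0.25 for D930028M14Rik, 0.15 for Ftx, 0.96 for Gm10845, 0.52 for Gm6981, 0.22 for Has2os and 0.48 for Snhg5. The polysomal change became −0.26 for Gm4532 and −0.02 for Pvt1, and the subpolysomal change −0.02 for 1700097N02Rik. With the 75th percentile, ratios in scramble cells became −0.31, −0.76 and −0.42 for Gm12070, −0.02 for Gm6981 and 0 for Gm8709, and in shRNA cells −0.24 for Airn, −0.61, −0.84 and −0.71 for Gm12070, −0.21 for Gm6981 and −0.28 for Gm8709. With 1 mean per gene name they became 0.22 and 0.12 for Gm6981 in scramble and shRNA cells and −0.27 for Airn in shRNA cells. The cause of these changes was not tested. Signal over background limits the dim members.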
